A study of Mus musculus with 6 samples.

Results

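The tubulin genes were followed in macrophages grown from the bone marrow of vimentin-deficient mice and wild-type littermates. Tubulins were taken as the probe sets of the expression array whose platform annotation names exactly 1 gene symbol, that of 1 of 9 tubulin genes: Tuba1a, Tuba1b, Tuba1c and Tuba4a (alpha-tubulins), Tubb2a, Tubb4b, Tubb5 and Tubb6 (beta-tubulins) and Tubg1 (gamma-tubulin). This gave 17 probe sets of 7 genes among 45037 non-control probe sets. The 4 probe sets that name a tubulin of this set together with another gene were left out, and for this reason Tuba1b and Tuba1c have no values here. Of the 17, 5 end in _x_at and 1 in _s_at, suffixes that mark probes able to bind related transcripts. Another 2 end in _a_at, which is not counted here as such a mark.

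Total RNA was hybridised to Affymetrix mouse expression arrays, 3 arrays per genotype and 1 sample per array. Both genotypes were on a C57BL/6 background and 17 weeks old. Femoral marrow of both was cultured at normal oxygen in medium with supernatant of the cell line CMG14-12, which served as the source of macrophage colony-stimulating factor. The labels call the samples biological replicates and do not name the vimentin allele, and p-values measure the spread between these samples. All 7 genes of a macrophage marker list had probe sets above the filter on dim signals used for testing, as had 19 of 35 marker genes on the array from 7 lists for other marrow-derived cells. The filter kept 27022 of 45037 non-control probe sets, so passing it does not show that a cell type was present. In whole cultures, fewer cells of a type and less RNA per cell cannot be told apart.

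Microtubules are hollow polymers of alpha-tubulin and beta-tubulin dimers, and gamma-tubulin, in a ring complex at the centrosome, starts new ones. Macrophages use them for organelle placement, polarised secretion, phagosome transport and mitosis. Vimentin filaments run along microtubules in many cell types and are carried on them by kinesin, and the amount of tubulin mRNA is held in check by the pool of free tubulin, whose excess leads to decay of tubulin mRNA on the ribosome.

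Vim checked the labels. Its brightest probe set read 7.43 ± 0.67 in vimentin-deficient and 13.32 ± 0.09 in wild-type macrophages (log2 values, SD, n = 3 each), and its 3 probe sets made up 3 of the 5 probe sets that passed the threshold among the 27022 tested (limma, Benjamini-Hochberg adjusted p below 0.05). The other two were of Ak8 and Adam19, named here because the count is small. Vimentin-deficient replicate 3 stood apart: it correlated with the other arrays at 0.975 to 0.979 across probe sets, against 0.992 to 0.998 among the other 5. Results are therefore given with and without it. Without it, 257 probe sets rose and 187 fell.

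With 6 arrays, 0 of 16 tested tubulin probe sets passed the threshold, where 0.0185% of all tested probe sets did. The median log2 fold change (vimentin-deficient minus wild-type) was -0.04 over the 16 tubulin probe sets and -0.01 over all 27022. With 6 arrays, 3 of 16 had an unadjusted limma p under 0.05, a pair of Tuba4a probe sets with higher values and a Tubb2a probe set with lower values, against 7.19% of all. Without vimentin-deficient replicate 3, 1 of 16 rose, a Tuba4a probe set, where 0.951% of all tested probe sets rose, 0.692% fell and 1.64% passed in either direction. In that fit 4 of 16 had an unadjusted limma p under 0.05, against 12.9% of all. The median was then 0.04 over the tubulin probe sets and -0.01 over all.

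The promoters of 4 genes are shown because these genes gave the patterns described below: Tuba4a and Tubb2a, whose brightest probe sets separated the genotypes in opposite directions, and Tuba1a and Tubb4b, whose brightest probe sets were low on vimentin-deficient replicate 3. Each runs from 250 bases before to 50 bases after a gene start in RefSeq (build GRCm38.p6, 5′ to 3′ on the minus strand, where all 4 genes lie). Capitals mark matches on either strand to the TATA box TATAAA, the CCAAT box CCAAT, the GC box GGGCGG, the cell cycle element TTTGAA or the cAMP response element TGACGTCA. No matches overlap in these 4 windows.
Tuba4a, chr1:75219245-75219544: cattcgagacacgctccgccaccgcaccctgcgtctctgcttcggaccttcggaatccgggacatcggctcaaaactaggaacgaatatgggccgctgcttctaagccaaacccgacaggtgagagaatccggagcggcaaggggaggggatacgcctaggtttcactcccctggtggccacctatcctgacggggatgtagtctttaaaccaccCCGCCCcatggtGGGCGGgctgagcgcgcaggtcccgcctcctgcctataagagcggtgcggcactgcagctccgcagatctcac
Tubb2a, chr13:34077959-34078258: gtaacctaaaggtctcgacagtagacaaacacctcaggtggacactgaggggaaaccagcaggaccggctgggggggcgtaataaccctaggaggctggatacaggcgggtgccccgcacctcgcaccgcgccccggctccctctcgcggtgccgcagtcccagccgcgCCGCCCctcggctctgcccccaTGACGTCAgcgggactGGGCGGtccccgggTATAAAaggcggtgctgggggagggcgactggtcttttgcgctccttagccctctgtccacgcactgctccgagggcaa
Tuba1a, chr15:98953452-98953751: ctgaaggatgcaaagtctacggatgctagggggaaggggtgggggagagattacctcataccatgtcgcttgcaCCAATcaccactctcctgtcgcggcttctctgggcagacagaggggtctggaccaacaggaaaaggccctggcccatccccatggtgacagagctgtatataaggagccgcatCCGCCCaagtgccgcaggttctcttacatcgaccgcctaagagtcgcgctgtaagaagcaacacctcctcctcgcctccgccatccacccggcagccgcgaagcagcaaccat
Tubb4b, chr2:25224653-25224952: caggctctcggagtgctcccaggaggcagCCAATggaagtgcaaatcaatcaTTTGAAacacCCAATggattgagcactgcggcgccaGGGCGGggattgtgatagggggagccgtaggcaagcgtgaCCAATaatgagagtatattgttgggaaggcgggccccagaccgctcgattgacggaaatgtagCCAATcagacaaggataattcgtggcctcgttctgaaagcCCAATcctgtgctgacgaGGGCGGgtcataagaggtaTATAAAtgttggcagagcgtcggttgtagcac
Tubb4b holds 5 CCAAT matches, Tuba1a 1 and the other two genes 0, while 37.4% of 32851 mouse promoter windows of this length hold at least 1. The cell cycle element TTTGAA occurs in Tubb4b alone of the 4 and in 17.9% of all windows. Tubb2a holds the full cAMP response element TGACGTCA, 59 bases before its start, as do 1.79% of all windows, and TATAAA 29 bases before its start. TATAAA also occurs in Tubb4b, after the start used in the table, and in 13.6% of all windows. The GC box GGGCGG occurs in each of the 4, and in 35.7% of all windows. The promoter of Tubb5, not printed, holds 2 CCAAT matches and 2 GC box matches. These are letter matches, not measured binding sites.

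**Figure D1:**
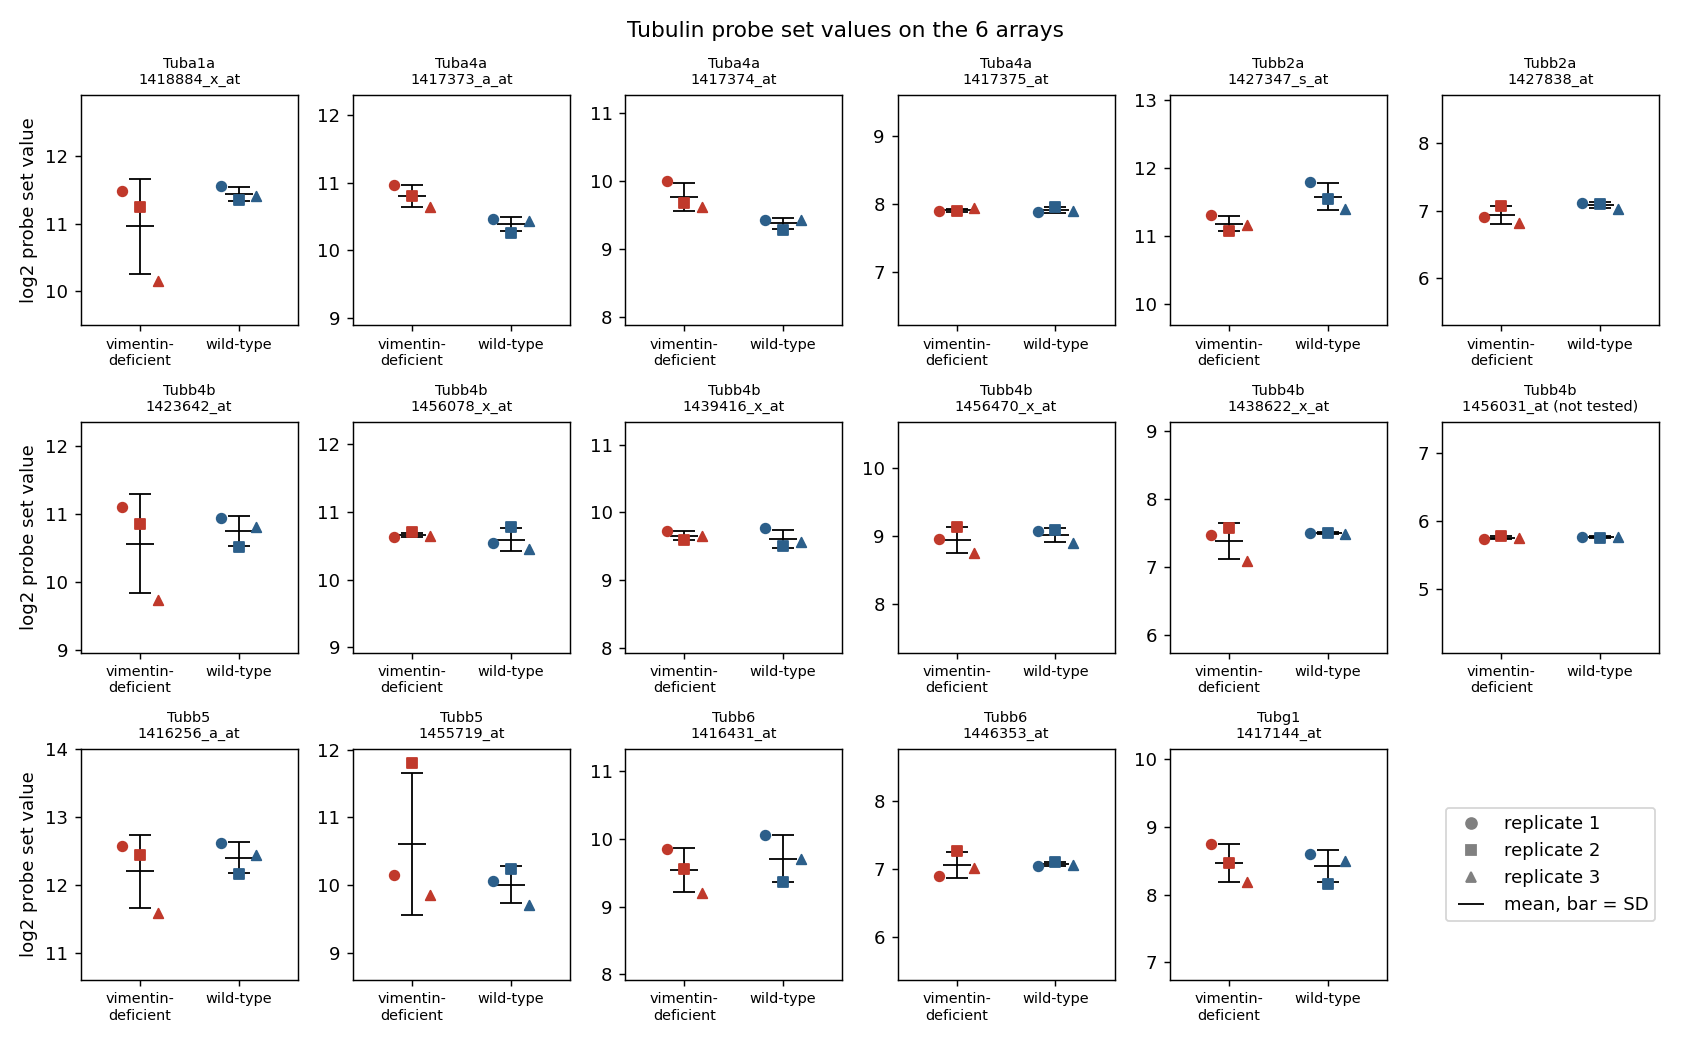
Log2 values (y axis) of the 17 tubulin probe sets on the 3 vimentin-deficient arrays (red, left) and the 3 wild-type arrays (blue, right), with mean and SD. Each panel spans the same number of log2 units around its own mean. Tuba4a 1417373_a_at and 1417374_at separate the genotypes upward and Tubb2a 1427347_s_at downward, and on Tuba1a, Tubb4b 1423642_at and Tubb5 1416256_a_at vimentin-deficient replicate 3 lies below the other arrays.

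Among the alpha-tubulins, Tuba4a had higher values in vimentin-deficient macrophages. Tuba4a encodes a widely expressed alpha-tubulin whose human counterpart is mutated in some familial amyotrophic lateral sclerosis. Its brightest probe set (1417373_a_at) read 10.96, 10.80 and 10.64 on vimentin-deficient replicates 1 to 3, against 10.46, 10.26 and 10.44 on the wild-type arrays. Every vimentin-deficient array lay above every wild-type array. The log2 fold change of Tuba4a there was 0.41 (SE 0.11, 95% interval 0.15 to 0.67, 1.33-fold, limma adjusted p = 0.483). Without vimentin-deficient replicate 3 it rose by 0.49 (SE 0.10, 95% interval 0.28 to 0.71, 1.41-fold, limma adjusted p = 0.0329).

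The second Tuba4a probe set (1417374_at) read 10.00, 9.68 and 9.62 on the vimentin-deficient arrays, against 9.43, 9.28 and 9.42 on the wild-type arrays, again without overlap. Its log2 fold change was 0.39 (SE 0.12, 95% interval 0.11 to 0.67, 1.31-fold, limma adjusted p = 0.585), and without vimentin-deficient replicate 3 it was 0.46 (SE 0.11, limma adjusted p = 0.0734). The third Tuba4a probe set (1417375_at), annotated to the same source sequence, lay between 7.88 and 7.95 on all 6 arrays and had a log2 fold change of 0.00 (SE 0.05, 95% interval -0.12 to 0.12). The 3 Tuba4a probe sets thus disagree in size, and the dimmest showed no separation. An exact two-sided permutation test gave p = 0.1 for each of the brighter pair, the smallest value that 3 arrays against 3 allow. Across the 16 tested tubulin probe sets these 2 were the only ones with all vimentin-deficient arrays above all wild-type arrays, where 5.92% of all tested probe sets had that order. Leaving out vimentin-deficient replicate 3 was the only one of the alternatives run in which the brightest Tuba4a probe set passed. Markers of platelets and megakaryocytes, cells in which this isotype is abundant, had 4 of 5 genes tested and list means of -0.15, -0.0037 and -0.75 log2 units against the wild-type mean on replicates 1 to 3 of the vimentin-deficient group, against -0.05 to 0.07 on the wild-type arrays. The median difference of that list on vimentin-deficient replicate 3 from the other 5 arrays was -0.13, and the part of such cells in the Tuba4a values was not tested.

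Tuba1a, the main alpha-tubulin of developing neurons, did not separate the genotypes. Its 1 probe set (1418884_x_at, which may bind related alpha-tubulin transcripts) read 11.48, 11.24 and 10.16 on the vimentin-deficient arrays, against 11.56, 11.35 and 11.41 on the wild-type arrays. Only vimentin-deficient replicate 3 lay apart, 1.25 log2 units below the mean of the other 5 arrays, whose SD was 0.12. The log2 fold change of Tuba1a was -0.48 (SE 0.32, 95% interval -1.25 to 0.29, limma adjusted p = 0.777), and -0.08 (SE 0.10, 95% interval -0.29 to 0.14, limma adjusted p = 0.843) without that array.

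Among the beta-tubulins, Tubb2a, a class II beta-tubulin best known from neurons, had lower values in vimentin-deficient macrophages. Its brighter probe set (1427347_s_at) read 11.30, 11.07 and 11.16 on the vimentin-deficient arrays, against 11.79, 11.54 and 11.39 on the wild-type arrays. The genotypes did not overlap, and the gap between the nearest arrays was small beside the range of the wild-type arrays, 0.40. The log2 fold change was -0.39 (SE 0.12, 95% interval -0.68 to -0.11, 1.31-fold, limma adjusted p = 0.585). Without vimentin-deficient replicate 3 it was nearly the same, -0.39 (SE 0.12, 95% interval -0.65 to -0.12, limma adjusted p = 0.173). This was the only tested tubulin probe set with all vimentin-deficient arrays below all wild-type arrays, where 8.91% of all tested probe sets had that order. The exact two-sided permutation p was 0.1, again the smallest possible.

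The dimmer Tubb2a probe set (1427838_at) read 6.91, 7.07 and 6.82 on the vimentin-deficient arrays, against 7.11, 7.09 and 7.03 on the wild-type arrays. Its genotypes overlapped, and its log2 fold change was -0.14 (SE 0.07, limma adjusted p = 0.726). Because the brighter probe set may bind related transcripts, the neighbouring gene Tubb2b was read beside it. Which transcripts the brighter probe set bound was not tested. Tubb2b (1452679_at) read 8.81, 8.40 and 8.51 on the vimentin-deficient arrays, against 8.76, 8.51 and 8.49 on the wild-type arrays, with a log2 fold change of -0.01 (SE 0.13).

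Tubb5 encodes the class I beta-tubulin that most dividing cells rely on, and its probe sets disagreed. The brighter (1416256_a_at) read 12.57, 12.44 and 11.59 on the vimentin-deficient arrays, against 12.61, 12.15 and 12.43 on the wild-type arrays. Vimentin-deficient replicate 3 was 0.86 log2 units below the mean of the other 5 arrays, and the other two vimentin-deficient arrays lay within the wild-type range. The log2 fold change was -0.20 (SE 0.27, 95% interval -0.83 to 0.44, limma adjusted p = 0.888), and 0.11 (SE 0.12, 95% interval -0.15 to 0.37) without that array.

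The other Tubb5 probe set (1455719_at) read 10.15, 11.81 and 9.86 on the vimentin-deficient arrays, against 10.06, 10.24 and 9.71 on the wild-type arrays. Here vimentin-deficient replicate 2 alone was high, 1.80 log2 units above the wild-type mean, with no such value on the brighter Tubb5 probe set. The log2 fold change was 0.60 (SE 0.49, 95% interval -0.56 to 1.76, limma adjusted p = 0.808), and 0.0016 without vimentin-deficient replicate 2. Without vimentin-deficient replicate 3, which keeps the high replicate 2, it was 0.97 (SE 0.36, 95% interval 0.17 to 1.78, limma adjusted p = 0.277).

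Tubb4b, formerly Tubb2c, encodes a broadly expressed class IVb beta-tubulin that is also a main isotype of cilia. It had 6 probe sets, the most of any tubulin here. The brightest (1423642_at) read 11.10, 10.85 and 9.73 on the vimentin-deficient arrays, against 10.94, 10.51 and 10.81 on the wild-type arrays. As for Tuba1a, vimentin-deficient replicate 3 alone was low, by 1.11 log2 units against the mean of the other 5. The log2 fold change was -0.19 (SE 0.35, limma adjusted p = 0.921), and 0.22 (SE 0.13, 95% interval -0.06 to 0.51, limma adjusted p = 0.527) without that array.

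The other Tubb4b probe sets did not all share that low value. Of the 4 that end in _x_at, 1438622_x_at and 1456470_x_at were 0.42 and 0.28 log2 units lower on vimentin-deficient replicate 3 than on the mean of the other 5, and 1439416_x_at and 1456078_x_at were at 0.02 each. Over these 4, log2 fold changes ran from -0.11 to 0.07 with 6 arrays. The sixth Tubb4b probe set (1456031_at) lay between 5.74 and 5.78 on all arrays, below the filter of 6.93, and was not tested.

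Tubb6 encodes the class V beta-tubulin, which loosens the microtubule network of mammalian cells when made in excess. Its brighter probe set (1416431_at) read 9.85, 9.55 and 9.20 on the vimentin-deficient arrays, against 10.05, 9.36 and 9.70 on the wild-type arrays. The spread within each genotype, SD 0.33 and 0.34, was larger than the log2 fold change of -0.17 (SE 0.22, 95% interval -0.70 to 0.36, limma adjusted p = 0.885). Without vimentin-deficient replicate 3 the log2 fold change was -0.0031 (SE 0.17). The dimmer Tubb6 probe set (1446353_at) had -0.01 (SE 0.09).

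Tubg1, the gamma-tubulin of centrosomes, had 1 probe set (1417144_at). It read 8.74, 8.46 and 8.19 on the vimentin-deficient arrays, against 8.60, 8.16 and 8.50 on the wild-type arrays. The genotypes overlapped, with a log2 fold change of 0.04 (SE 0.17, 95% interval -0.36 to 0.45, limma adjusted p = 0.966). Without vimentin-deficient replicate 3 it was 0.18 (SE 0.13, 95% interval -0.11 to 0.47, limma adjusted p = 0.646).

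**Figure D2:**
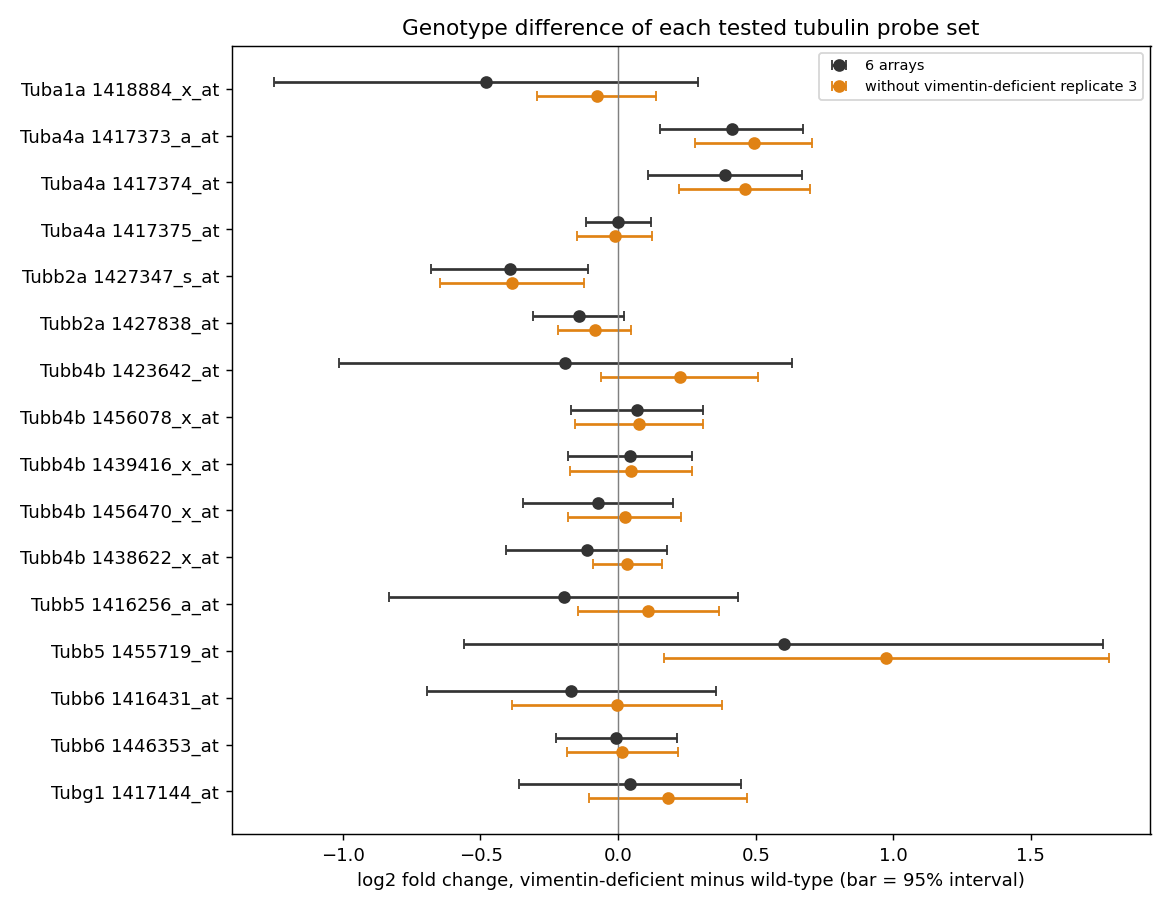
Log2 fold change, vimentin-deficient minus wild-type (x axis), of the 16 tested tubulin probe sets (y axis) with 6 arrays (black) and without vimentin-deficient replicate 3 (orange), with 95% intervals from limma that are not adjusted for the number of probe sets. The brighter Tuba4a pair lies above 0 and Tubb2a 1427347_s_at below 0 in both fits, while the wide intervals of Tuba1a, Tubb4b 1423642_at and Tubb5 1416256_a_at narrow without that array.

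On vimentin-deficient replicate 3, several tubulin probe sets were low and others were not. Of the 16 tested, 7 were lower on it than on all other 5 arrays and 0 were higher, where 32.5% of all tested probe sets were lower and 25.9% higher. Over 0.5 log2 units below the mean of the other 5 were 5 of 16 (Tuba1a, Tubb4b 1423642_at, both Tubb5 probe sets and Tubb6 1416431_at), against 4.47% of all tested probe sets, and 0 were over 0.5 above it, against 5.45%, with 0.5 chosen after the values were seen. Of these, Tubb5 1455719_at lay within the range of the other arrays, only 0.14 below the wild-type mean, and vimentin-deficient replicate 2 raised the mean it was set against. The median difference of this array from the other 5 was -0.27 over the tubulin probe sets and -0.02 over all. The brighter Tuba4a pair was not low by this measure: on that array 1417373_a_at was 0.05 and 1417374_at 0.06 above the mean of the other 5. Both were below vimentin-deficient replicates 1 and 2, with differences of -0.24 and -0.22 from the mean of those arrays. The median of that difference over the tubulin probe sets was -0.27. All of these differences rest on 1 array, with no test.

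Proliferation genes moved with these tubulins across arrays. The 26 tested genes of that list averaged 0.48, 0.22 and -1.58 log2 units against the wild-type mean on replicates 1 to 3 of the vimentin-deficient group, against 0.27, -0.31 and 0.04 on the wild-type arrays. The brighter Tubb5 probe set stood at 0.18, 0.04 and -0.81 on the vimentin-deficient arrays, against 0.21, -0.25 and 0.03 on the wild-type arrays, and the brightest Tubb4b probe set at 0.34, 0.10 and -1.02, against 0.18, -0.24 and 0.06. In all 3 series wild-type replicate 1 was the highest and wild-type replicate 2 the lowest wild-type array, as they were for Tubb6 1416431_at, Tubg1, Tuba1a, Tubb4b 1439416_x_at and both brighter Tuba4a probe sets. Over the 16 tubulin probe sets, wild-type replicate 1 was the highest wild-type array in 11 and wild-type replicate 2 the lowest in 8, where these were 33.0% and 35.8% of all tested probe sets. Of the list, 25 of 26 genes were lowest on vimentin-deficient replicate 3. With 6 arrays 0 of 26 passed the threshold, nor did any without that array. At an unadjusted limma p under 0.05 were 0 and 15, against 7.19% and 12.9% of all tested probe sets. The list had 2 higher and 24 lower means with 6 arrays (median log2 fold change -0.24). Without that array the list had 24 higher and 2 lower means (median 0.35). Among its 3 genes with the smallest p, Ccnb2, a mitotic cyclin, and Birc5, a chromosomal passenger protein, stood at -3.26 and -3.25 log2 units there against the mean of the other 5 arrays, and Cdc20, an activator of the anaphase-promoting complex, at -0.42. Macrophage markers were mixed on vimentin-deficient replicate 3, where 4 of 7 were higher than on all other arrays and 2 were lower. The 7 genes averaged -0.14, -0.08 and 0.25 on the vimentin-deficient arrays, against -0.10, 0.06 and 0.04 on the wild-type arrays. The part of proliferation or of cell makeup in the tubulin values was not tested.

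**Figure D3:**
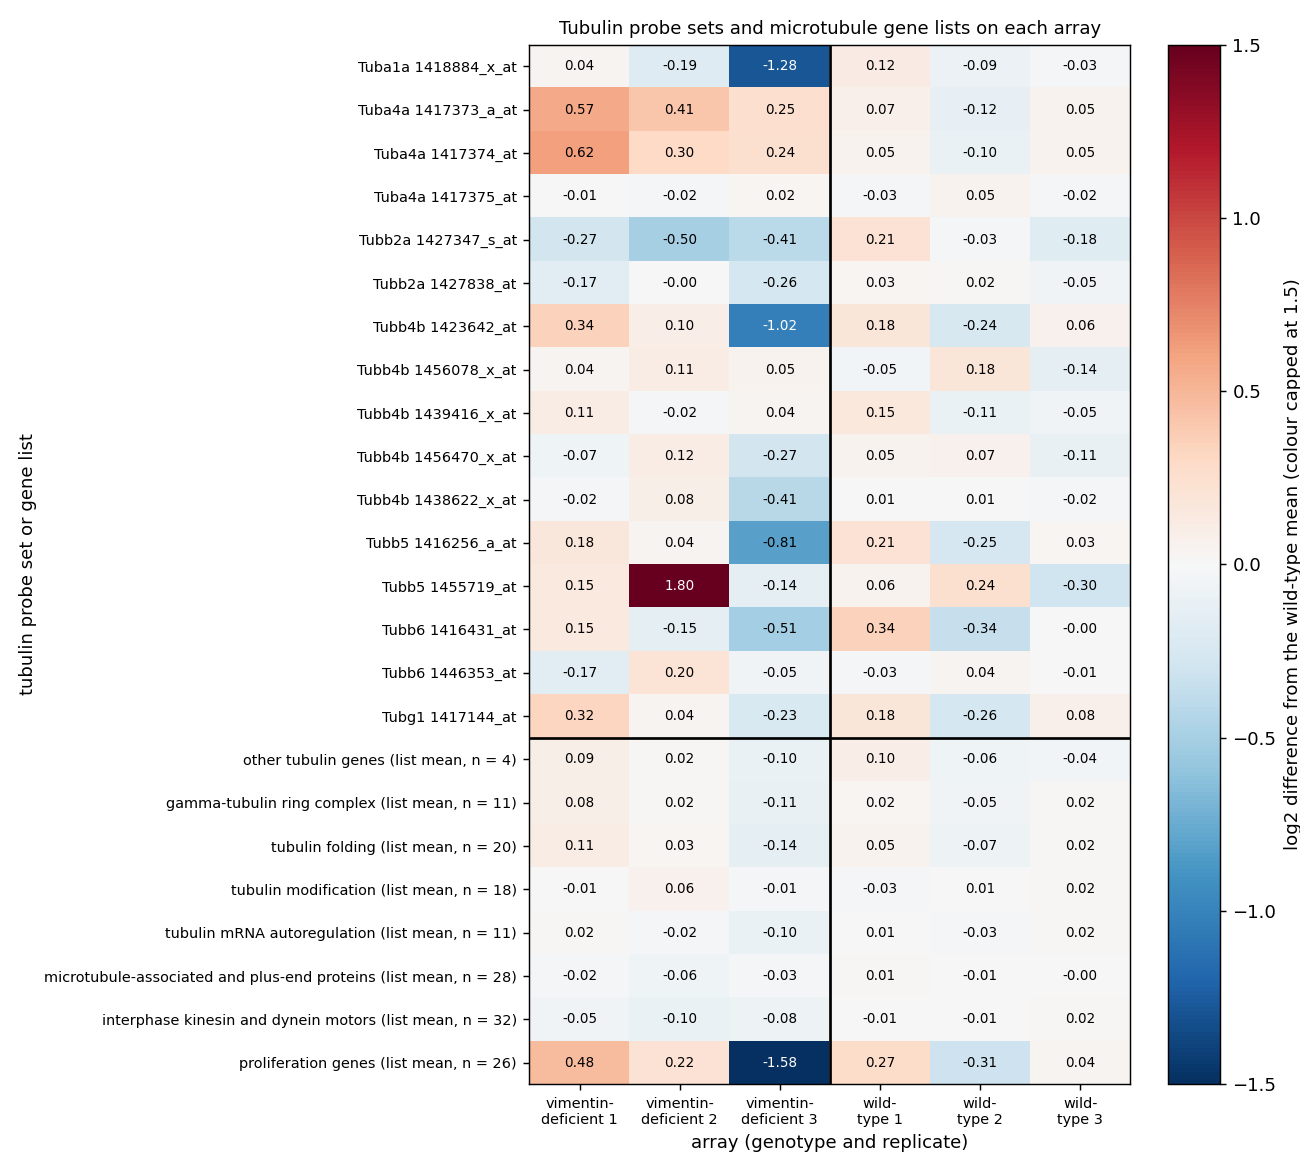
Difference from the wild-type mean in log2 units (colour and printed number) of each tested tubulin probe set (upper rows) and of the mean of each gene list (lower rows), on the 3 vimentin-deficient arrays (left) and the 3 wild-type arrays (right). On vimentin-deficient replicate 3, Tuba1a (-1.28), Tubb4b 1423642_at (-1.02), Tubb5 1416256_a_at (-0.81) and the proliferation list (-1.58) are low together, while both brighter Tuba4a probe sets stay above 0.

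Other genes shared these array patterns closely. Likeness was the root mean square difference of values over 6 arrays, after each probe set's own mean was subtracted, among 22980 probe sets with 1 symbol. Nearest to Tuba1a, the brightest alpha-tubulin probe set, were Aacs (0.0615), which activates acetoacetate for lipid synthesis, Dhcr7 (0.0693), an enzyme of cholesterol synthesis, Gask1b (0.0745), Cryl1 (0.0756) and Pter (0.0781), where Tuba1a itself deviated from its mean by 0.477. Nearest to Tubb5, the brightest beta-tubulin probe set, were Diaph3 (0.0325), a formin that nucleates actin filaments, Cyb5b (0.0407), an outer mitochondrial membrane cytochrome, Add3 (0.0421), a spectrin-actin linker, the glycolytic enzyme gene Tpi1 (0.0436) and Mtfr2 (0.0481), where Tubb5 deviated by 0.352. All 10 were low on vimentin-deficient replicate 3, by 0.76 to 1.40 log2 units, which follows from picking them over all 6 arrays. The other 5 arrays also entered the pick, so the shares given next are not independent of it. Without that array, 0.0218% to 0.479% of the probe sets were nearer to Tubb5 than its 5 named genes, and 0.422% and 0.814% were nearer to Tuba1a than Aacs and Dhcr7. For Gask1b, Cryl1 and Pter the shares were 6.52%, 9.36% and 6.53%, so their likeness to Tuba1a rested more on that array.

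The wider microtubule machinery was read from 7 lists with 124 tested genes. With 6 arrays 0 rose and 0 fell past the threshold, where 0.0185% of all tested probe sets passed. At an unadjusted limma p under 0.05 were 6, against 7.19% of all. Higher means were found for 49 and lower means for 75, and 43.9% of all tested probe sets had higher means. Without vimentin-deficient replicate 3, 0 rose and 1 fell, where 0.951% of all tested probe sets rose and 0.692% fell. An unadjusted limma p under 0.05 was then reached by 12, against 12.9% of all. In that fit 61 had higher and 63 lower means, where 46.6% of all tested probe sets had higher means. The limma adjusted p of the genes named below lay between 0.523 and 0.990 with 6 arrays.

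The 1 call was of a motor gene. Of 32 tested kinesin, dynein and dynactin genes, 23 had lower and 9 higher means, with a median log2 fold change of -0.08. Kif5c, a heavy chain of kinesin-1, the motor that carries vimentin along microtubules, read 8.42, 8.31 and 8.56 on the vimentin-deficient arrays, against 8.65, 8.82 and 8.76 on the wild-type arrays, with no overlap. Its log2 fold change was -0.31 (SE 0.09, limma adjusted p = 0.523), and without vimentin-deficient replicate 3 Kif5c fell by 0.38 on the log2 scale (SE 0.08, limma adjusted p = 0.0489). Klc4, a kinesin light chain gene, had -0.26 (SE 0.10) and Dynlt3, a dynein light chain gene, -0.28 (SE 0.09). Dynlt3 read lower on every vimentin-deficient array and had 4 tested probe sets, all of them lower, between -0.28 and -0.21. Of all tested probe sets, 14.8% had no overlap between genotypes, and the genes named from the lists were picked by smallest p.

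Genes that fold and handle tubulin had small differences. Of 20 tested genes for folding cofactors, prefoldin and the chaperonin that folds tubulin, 8 had higher and 12 lower means, with a median of -0.01, and 17 had higher means without vimentin-deficient replicate 3 (median 0.06). The prefoldin genes Pfdn4 and Pfdn2 had log2 fold changes of 0.21 (SE 0.10) and 0.13 (SE 0.08), and Arl2, a small GTPase that works with the tubulin cofactors, had -0.13 (SE 0.07). Of 18 tested genes for enzymes that modify tubulin, 8 had higher and 10 lower means (median -0.03). The deacetylase gene Sirt2 had -0.09 and the ligase-family gene Ttll3 -0.06. Agbl5, which encodes a deglutamylase, had 0.55 (SE 0.48) on its brightest probe set, where vimentin-deficient replicate 2 alone was high, at 8.85, against 7.01 and 6.98 on vimentin-deficient replicates 1 and 3 and 6.99 to 7.16 on the wild-type arrays, as it was on Tubb5 1455719_at.

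Of 11 tested genes of the decay pathway for tubulin mRNA, 3 had higher and 8 lower means (median -0.05). Scaper, which links the ribosome-bound sensor of this pathway to the CCR4-NOT deadenylase, had a log2 fold change of -0.12 (SE 0.06). Its genotypes only just did not overlap, and 14.8% of all tested probe sets had no overlap. The deadenylase subunit genes Cnot2 and Cnot3 had -0.06 and 0.10, and the 5 other tested probe sets of Cnot2 were of opposite sign.

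Of 11 tested genes of the gamma-tubulin ring complex, 7 had higher and 4 lower means (median 0.00), with Mzt1 at 0.13 (SE 0.10), Tubgcp4 at 0.12 (SE 0.10) and Mzt2 at -0.17 (SE 0.12). Tubgcp4 and Mzt1 had 3 tested probe sets each, with log2 fold changes of 0.07 to 0.60 and of 0.05 to 0.22. Further tubulin genes outside the set, 4 of them tested, had a median of -0.01, with Tubd1 at 0.08, Tubb4a at -0.06 and Tuba8 at -0.01. Of 28 tested genes for microtubule-associated and plus-end proteins, 13 had higher and 15 lower means (median -0.03). The 3 with the smallest p were genes for proteins that bind along the filament. Map6, a stabiliser, had a log2 fold change of -0.20 (SE 0.06) and no overlap between genotypes. Mapt, which encodes tau, had -0.13 (SE 0.05) and no overlap, and Map7, a kinesin-1 cofactor, had -0.13 (SE 0.08). Picking by smallest p favours such separation, and 14.8% of all tested probe sets had no overlap.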

How the data were processed

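Total RNA of 3 vimentin-deficient and 3 wild-type macrophage samples was measured on 1 array each. The authors deposited log2 values per probe set, and the sources used here name no summary or normalization method. The values run from 5.43 to 14.50 with array medians of 7.23 to 7.25, and they were used as deposited. Folds of dim probe sets can be compressed, because background was not separated, and the number of arrays limits the precision. Levels of different probe sets were not compared.

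Of 45101 probe sets, 64 controls were left out. Of the rest, 34945 named 1 gene symbol, 932 several and 9160 none, and 34741 were matched by Entrez ID to a RefSeq gene table (GRCm38.p6) for current symbols. All 27022 non-control probe sets with a mean at or above the 40th percentile, 6.93, entered 1 fit of limma 3.58.1 (R 4.3.3, eBayes with a mean-variance trend, no covariates). Benjamini-Hochberg adjustment covered all of them, with a threshold of 0.05. Genes of a list were read on their brightest probe set. Of 24 list genes named, 9 had several tested probe sets and 3 (Agbl5, Cnot2, Cdc20) had probe sets of opposite sign. Named were every tubulin probe set, Vim, the 3 genes with the smallest p of each of 8 lists, and the 5 genes most like the brightest alpha- and beta-tubulin. Tubb2b, Ak8 and Adam19 were named after their values were seen. The tubulin set and the lists were chosen with earlier results of these data known. The fit was tested on simulated data. Alternatives covered the filter, normalization, variance model, array weights, probe set choice, the replicate number as a block and leaving out each array, and 3 were added after seeing the data (the lists without vimentin-deficient replicate 3, and another comparison group and other normalizations for that array).

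Of 8 marker lists, 0 of 26 tested genes passed (limma, 2 at an unadjusted p under 0.05). Among all tested probe sets 0.0185% passed, and 7.19% had an unadjusted limma p under 0.05. Median log2 fold changes were -0.11 for macrophage, 0.02 for fibroblast, -0.08 for neutrophil, -0.04 for B cell, 0.01 for T cell, -0.01 for dendritic cell, -0.18 for erythroid and -0.07 for platelet markers.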

Additional observations from a re-analysis of the deposited data

How the results depend on the processing

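Over fits that left out 1 array, probe sets past the threshold numbered 0 to 444 of all and 0 to 1 of the tubulins, and the tubulin median log2 fold change ran from -0.14 to 0.04. The 444 came without vimentin-deficient replicate 3, and 0 without vimentin-deficient replicate 2 or any 1 wild-type array (limma, 914 to 2576 at an unadjusted p under 0.05), so that Vim did not pass there either. All probe sets past the threshold numbered 76 with array quality weights, 3 without a mean-variance trend, with 1 probe set per gene or without probe sets ending in _x_at, _s_at or _a_at, and 0 with the replicate number as a block (limma, 1934 at an unadjusted p under 0.05). In all 9 alternatives other than leaving out an array, 0 tubulin probe sets passed (limma). With 1 probe set per gene the tubulin median was -0.19 over 7 genes.

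Replicate numbers did not pair the arrays: deviations of same-numbered arrays correlated at 0.43, -0.15 and 0.04, and vimentin-deficient replicate 2 correlated best with wild-type replicate 1. With the replicate block, Tuba4a 1417373_a_at kept its log2 fold change of 0.41 and had a limma adjusted p of 0.689.

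Of 16 tubulin probe sets, 6 kept their direction in every alternative in which they were tested, among them both brighter Tuba4a probe sets (0.33 to 0.49 and 0.27 to 0.46 without 1 array) and Tubb2a 1427347_s_at (-0.49 to -0.29). Tuba4a 1417373_a_at, Tubb2a 1427347_s_at and Tuba1a are not in the fit without probe sets ending in _x_at, _s_at or _a_at, and Tuba4a 1417374_at is not in the fit with 1 probe set per gene. Limma adjusted p over the alternatives ran from 0.0329 to 0.995 for Tuba4a 1417373_a_at, from 0.0734 to 0.995 for 1417374_at and from 0.173 to 0.995 for Tubb2a. Directions changed without 1 array for 10: Tuba4a 1417375_at (-0.015 to 0.024), Tubb4b 1423642_at (-0.46 to 0.22), 1456078_x_at (-0.0010 to 0.16), 1439416_x_at (-0.0090 to 0.12), 1456470_x_at (-0.17 to 0.025) and 1438622_x_at (-0.21 to 0.034), Tubb5 1416256_a_at (-0.38 to 0.11), Tubb6 1416431_at (-0.34 to 0.0015) and 1446353_at (-0.11 to 0.075), and Tubg1 (-0.095 to 0.18). Of list genes, Tuba8 (-0.060 to 0.068), Agbl5 (-0.072 to 0.86), Ccnb2 (-1.44 to 0.33) and Birc5 (-1.43 to 0.32) did so too. With array quality weights, signs turned for Tuba4a 1417375_at (-0.0047), Tubb4b 1423642_at (0.13) and 1456470_x_at (0.0066), Tubb5 1416256_a_at (0.035), Tuba8 (0.054), Ccnb2 (0.019) and Birc5 (0.0090), and for Tuba4a 1417375_at with quantile normalization (-0.00035) and median centring (-0.00027). The weight of vimentin-deficient replicate 3 was 0.223. Why these values moved was not tested.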
